A study of Mus musculus with 34 samples.

Results

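The genes described here encode the proteasome and the proteins that assemble, activate or inhibit it, measured by RNA sequencing in mouse hindlimb muscle. They are the 49 protein-coding genes, of 23011 genes in the deposited table, whose symbol starts with Psma, Psmb, Psmc, Psmd, Psme, Psmf or Psmg and a digit, without pseudogene symbols. By role they comprise 7 alpha-ring genes, 7 constitutive beta-ring genes, 3 inducible beta genes, 6 ATPase genes and 11 non-ATPase genes of the regulatory particle. The others are 3 chaperones that assemble its base (Psmd5, Psmd9, Psmd10), 4 chaperones that assemble the core (Psmg1 to Psmg4), 5 activator genes (Psme1, Psme2, Psme2b, Psme3, Psme4), the inhibitor Psmf1 and the testis-type alpha subunit Psma8. The pattern also takes in Psmc3ip, a meiotic recombination factor that is named for its binding to Psmc3 and is not a subunit. Filtering on low counts left 48 members in every fit, all but Psma8, which lay between 0 and 0.282 CPM (a gene's counts relative to the library's scaled total, as counts-per-million).

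All mice were female, and the total RNA of each library came from soleus, a slow postural calf muscle, or from plantaris, its fast neighbour. Mice were 24 months (aged) or 6 months (young) old and were either sedentary or trained for 8 weeks by PoWeR, progressive weighted wheel running, in which the wheel carries added load. All were fasted overnight before tissue was taken, and the wheels of PoWeR mice were locked for 24 h. The 34 libraries form 8 groups, with 5 libraries in each of the 2 aged sedentary groups and 4 in each of the other groups. Nothing in the labels states that the libraries of a group came from separate mice, so p-values measure the spread between libraries, which may in part be technical. Names of young libraries carry up to 2 numbers, whose meaning is not given in the sources used here, and young replicates are numbered below in order of deposition.

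The proteasome is the protease that degrades most ubiquitin-tagged proteins. Its core particle is a barrel of alpha and beta rings, in which the beta subunits Psmb5, Psmb6 and Psmb7 hold the active sites, and its regulatory particle binds, unfolds and threads in the substrate with a ring of ATPases. Interferon gamma and immune cells bring in Psmb8, Psmb9 and Psmb10 in place of the constitutive active subunits, which gives the immunoproteasome and favours peptides for MHC class I. In skeletal muscle the system is best known for the breakdown of contractile proteins during wasting, downstream of the muscle ubiquitin ligases Fbxo32 and Trim63.

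Library totals ran from 15237617 to 26250434 counts, and no replicate pair agreed within sampling noise (chi-square over its degrees of freedom 5.16 or more). Fibre-type genes were read as a check of the muscle labels. Myh7, the slow myosin heavy chain, had a mean of 23040 CPM in aged sedentary soleus and 455 CPM in aged sedentary plantaris, and Myh4, the fastest myosin, had 352 and 53302 CPM. The Myh4 mean of aged sedentary soleus rests on replicate 13, at 1596 CPM, while the other libraries read 13.9 to 99.98 CPM. The titles of the aged plantaris libraries name the soleus while their source field names the plantaris, and the myosins go with the source field. The libraries labelled young plantaris had 22353 (sedentary) and 24914 (PoWeR) CPM of Myh7 against 27.5 and 19.3 CPM of Myh4. These levels go against their label. The libraries are called by that label, enter no test between muscles or ages, and are set beside other groups only as values. They were tested for PoWeR among themselves, in the fit of the 17 libraries labelled plantaris. Aged plantaris was tested for PoWeR in the same fit, so the young libraries entered its filter, scaling and estimate of spread. In all these bulk samples, fewer cells of a type and less RNA per cell cannot be told apart.

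Stretches of 3 promoters are shown because they belong to members that the comparisons turn on: Psmb3 and Psmb5 are beta-ring genes lower after PoWeR in young soleus, and Psmd5 is the member with the widest difference between muscles. The sequences are RefSeq's on GRCm38.p6, read 5′ to 3′ on the gene's strand before RefSeq's start, without bases that GENCODE annotates as untranslated region of the gene. The Psmd5 stretch lies inside the span of the gene given below (chr2:34849734-34874968) and overlaps an exon of a noncoding Psmd5 transcript. Capitals mark matches, on either strand, to TGACNNNGC (the core of the element bound by Nfe2l1 and Nfe2l2, transcription factors known to induce proteasome genes), CCAAT (the box bound by NF-Y) or GAAA-NN-GAAA (the interferon-stimulated response element).
Psmb3, chr11:97703184-97703398, plus strand: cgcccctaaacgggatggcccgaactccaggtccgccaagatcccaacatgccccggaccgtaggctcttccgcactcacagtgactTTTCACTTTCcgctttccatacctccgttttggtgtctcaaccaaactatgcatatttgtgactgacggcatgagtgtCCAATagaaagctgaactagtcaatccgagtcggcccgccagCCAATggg
Psmb5, chr14:54618023-54618245, minus strand: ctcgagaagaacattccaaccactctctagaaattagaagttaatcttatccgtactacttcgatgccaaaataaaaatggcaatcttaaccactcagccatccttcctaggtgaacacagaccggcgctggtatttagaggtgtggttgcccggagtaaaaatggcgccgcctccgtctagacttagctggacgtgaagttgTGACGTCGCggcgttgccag
Psmd5, chr2:34870963-34871212, minus strand: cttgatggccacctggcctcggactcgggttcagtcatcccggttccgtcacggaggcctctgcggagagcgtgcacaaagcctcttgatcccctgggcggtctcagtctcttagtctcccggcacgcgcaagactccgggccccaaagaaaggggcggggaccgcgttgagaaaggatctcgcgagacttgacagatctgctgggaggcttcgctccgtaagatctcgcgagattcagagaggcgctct

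Distances are counted from RefSeq's start of the gene, which lies downstream of the end of the printed Psmb3 and Psmb5 stretches because bases annotated as untranslated region were left off. Counted so, the Psmb3 promoter holds CCAAT 85 and 43 bases before the start and, on the opposite strand, GAAA-NN-GAAA 163 bases before it. The Psmb5 promoter holds TGACNNNGC 47 bases before RefSeq's start, and the Psmd5 stretch holds none of these letters. Promoter windows of 250 bases before to 50 bases after the start were found for 41 of the 49 members. TGACNNNGC was in 14.6% of these 41 and in 12.5% of 27025 mouse promoters of that length, CCAAT in 34.2% and 37.9%, and GAAA-NN-GAAA in 12.2% and 3.49%. The 12.2% stands for 5 promoters, and 0 of the 3 inducible beta genes had a match to GAAA-NN-GAAA. These matches are descriptions of letters, not of binding.

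Levels per length show how the roles are ordered in sedentary aged soleus. Lengths were those of each gene's best-ranked principal protein-coding transcript in GENCODE, the longest where ranks tied. On the scale of CPM per kilobase of it, the median was 96.0 over the beta ring, 61.1 over the alpha ring, 59.7 over the ATPases and 62.2 over the non-ATPase subunits. The inducible beta genes had a median of 2.61 CPM per kilobase, with Psmb9 lowest at 1.47 and Psmb10 highest at 5.12. Core assembly chaperones had a median of 8.28, and Psmf1, which binds the core and inhibits it, had 3.78. The highest member was Psmb6, a catalytic subunit, at 127 CPM per kilobase, and Psma3 was lowest within the alpha ring at 8.74.

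Part of the order within a ring is uncertain because processed copies share sequence with the members. Of the counts assigned to Psma3 and its pseudogenes together, 76.0% ± 1.55 (SD, n = 5) went to the pseudogenes in aged sedentary soleus and 67.6% ± 0.41 (n = 4) in young sedentary soleus. For Psma5 the pseudogene share was 58.7% ± 4.37 and 54.0% ± 3.42. Psme2 and its intronless copy Psme2b share most of their sequence, and Psme2b took 74.3% ± 2.52 of their joint counts in aged and 86.1% ± 2.16 in young sedentary soleus. The share that went to copies therefore differed between the ages for several members, and the levels of Psma3, Psma5, Psme2 and Psme2b and their differences between groups are uncertain. Psmd11 (25.9% to its copy in aged sedentary soleus), Psmb5 (10.1%) and Psmb3 (7.21%) were less affected. Psmb9, Psmb7, Psmc3ip, Psmd13 and Psmd11 overlap a neighbouring gene, and the sources used here do not state whether strand was used in counting.

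**Figure D1:**
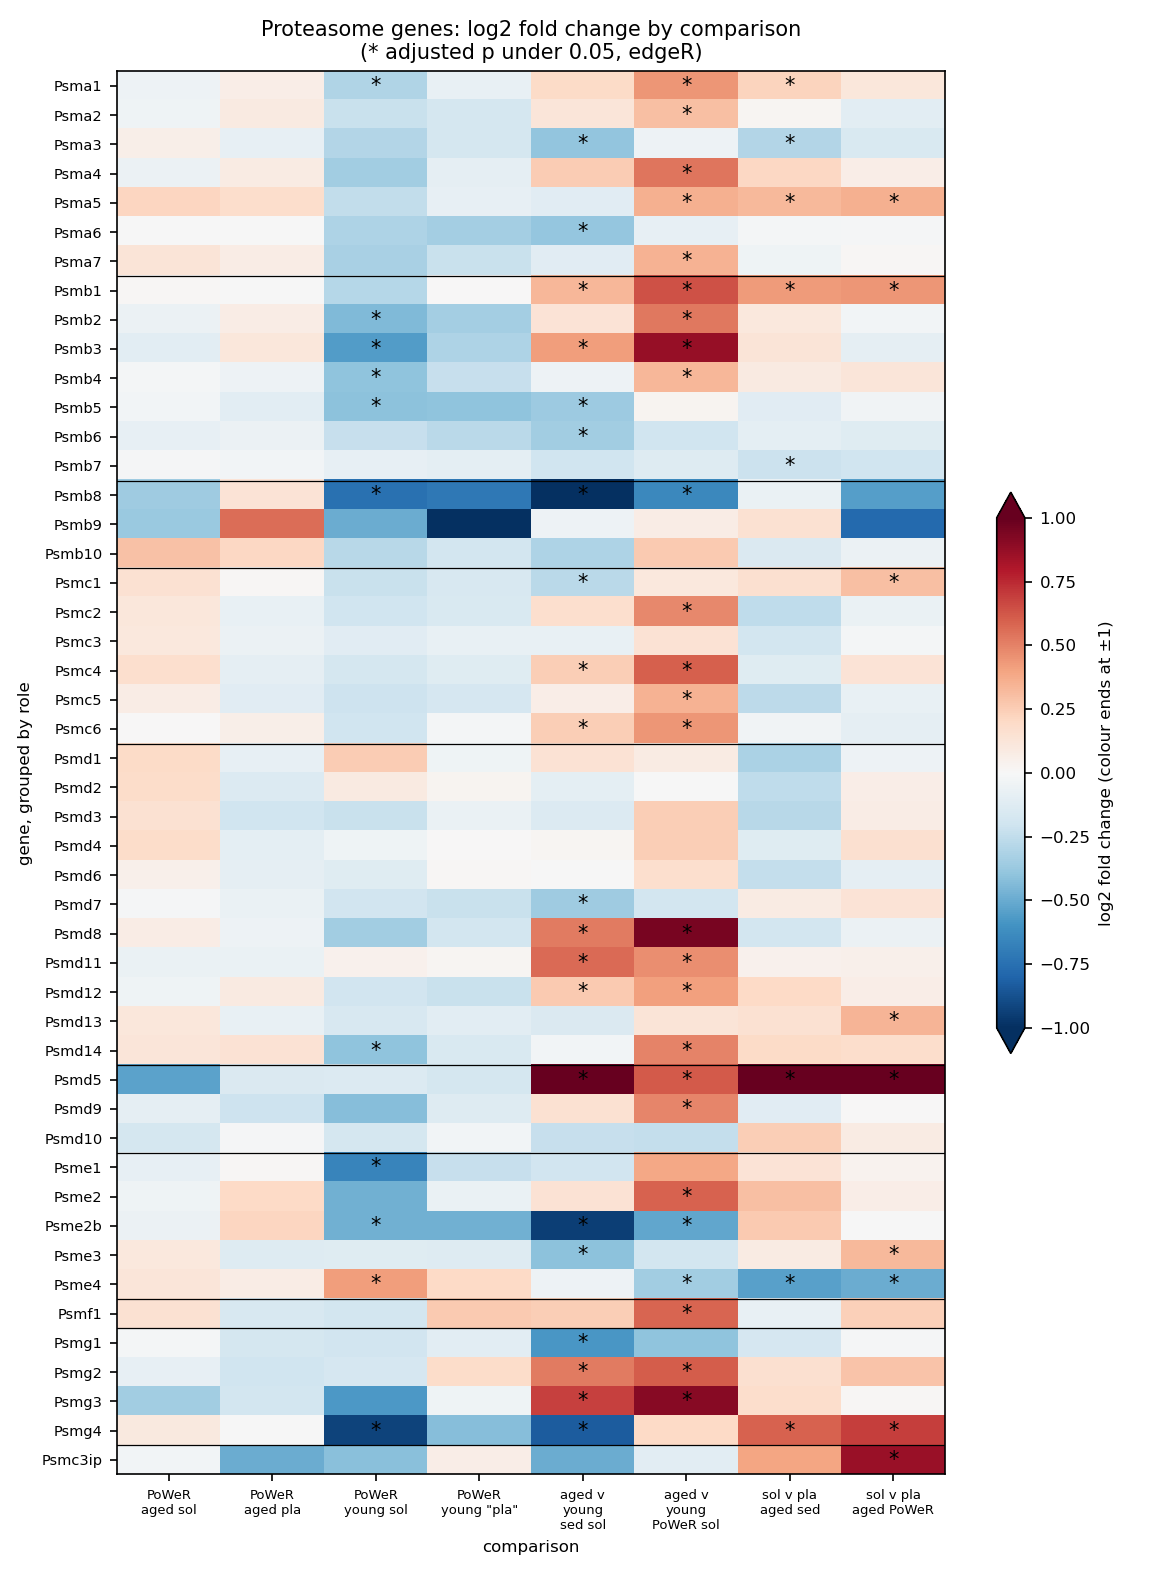
Log2 fold change (colour) of the 48 tested members (rows, by role) in the 8 comparisons between groups (columns), with an asterisk where the edgeR adjusted p was under 0.05 (colour ends at ±1). The column for PoWeR in young soleus is mostly below 0, with 11 asterisks, the columns for PoWeR at 24 months have none, and Psmd5 is at the end of the colour scale in both columns for soleus against plantaris.

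The catalytic subunits, constitutive and inducible, are given library by library. Psmb5 (chr14:54614119-54618022), which carries the chymotrypsin-like activity, read 112, 133, 111 and 108 CPM in sedentary young soleus and 104, 82.3, 60.9 and 94.0 CPM after PoWeR. In aged soleus Psmb5 read 92.5, 77.5, 85.5, 90.3 and 89.9 CPM in sedentary and 94.5, 84.2, 73.0 and 94.1 CPM in PoWeR libraries. All sedentary young soleus libraries lay above every other soleus library. In aged plantaris it read 93.1, 103, 101, 92.7 and 87.4 CPM when sedentary and 95.9, 84.8, 90.7 and 85.0 CPM after PoWeR, so those groups overlapped. The libraries labelled young plantaris read 94.9, 104, 46.5 and 88.5 CPM (sedentary) and 57.2, 52.3, 87.1 and 58.0 CPM (PoWeR), with replicate 3 of each group on the far side of its own group.

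Psmb6 (chr11:70525367-70527858), which carries the caspase-like activity, read 129, 161, 130 and 116 CPM in sedentary and 132, 120, 93.2 and 103 CPM in PoWeR young soleus. In aged soleus Psmb6 read 103, 94.3, 104, 103 and 105 CPM when sedentary and 107, 93.5, 95.4 and 92.2 CPM after PoWeR. Sedentary young soleus lay above every aged soleus library, and PoWeR young soleus overlapped all other soleus groups. Psmb6 in aged plantaris read 99.6, 124, 112, 103 and 112 CPM (sedentary) and 109, 106, 111 and 98.3 CPM (PoWeR). In the libraries labelled young plantaris it read 90.6, 103, 68.2 and 90.0 CPM, and 66.1, 70.6, 91.1 and 66.2 CPM after PoWeR. These groups overlapped through sedentary replicate 3 and PoWeR replicate 3.

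Psmb7 (chr2:38588036-38644087), which carries the trypsin-like activity, read 158, 192, 159 and 154 CPM in sedentary and 182, 157, 145 and 129 CPM in PoWeR young soleus. In aged soleus Psmb7 read 148, 139, 130, 139 and 142 CPM when sedentary and 160, 137, 124 and 138 CPM after PoWeR. In aged plantaris it read 167, 174, 160, 161 and 157 CPM when sedentary, all above the aged sedentary soleus, and 172, 158, 169 and 143 CPM after PoWeR. Psmb7 in the libraries labelled young plantaris read 153, 153, 94.9 and 146 CPM (sedentary) and 112, 122, 146 and 137 CPM (PoWeR). Its groups overlapped within each muscle label under training.

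Psmb8 (chr17:34197721-34201454), the inducible counterpart of Psmb5, read 9.996, 7.43, 10.8 and 7.65 CPM in sedentary and 7.04, 4.38, 3.43 and 6.25 CPM in PoWeR young soleus. In aged soleus Psmb8 read 5.20, 3.42, 3.61, 3.78 and 5.20 CPM when sedentary and 3.06, 2.72, 4.34 and 3.29 CPM after PoWeR. The sedentary young soleus was above all other soleus libraries. In aged plantaris it read 4.19, 4.12, 3.004, 2.80 and 8.27 CPM (sedentary) and 3.41, 5.75, 5.02 and 5.55 CPM (PoWeR). Psmb8 in the libraries labelled young plantaris read 8.92, 4.68, 3.44 and 6.91 CPM when sedentary and 3.41, 3.39, 3.72 and 4.15 CPM after PoWeR, groups that overlapped.

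Psmb9 (chr17:34181987-34187764), the inducible counterpart of Psmb6, was the lowest of the 6. It read 1.80, 1.91, 3.04 and 1.74 CPM in sedentary and 0.996, 1.65, 1.34 and 1.89 CPM in PoWeR young soleus, and 2.77, 1.71, 1.56, 2.22 and 1.70 CPM in sedentary and 1.08, 1.17, 2.11 and 1.84 CPM in PoWeR aged soleus. Aged plantaris Psmb9 read 0.952, 2.29, 1.56, 1.40 and 2.82 CPM when sedentary and 1.68, 3.24, 2.998 and 2.80 CPM after PoWeR. The libraries labelled young plantaris read 2.77, 1.33, 1.27 and 2.13 CPM, and 0.475, 0.484, 1.22 and 1.46 CPM after PoWeR. Every pair of trained and sedentary groups overlapped for Psmb9.

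Psmb10 (chr8:105935735-105938444), the inducible counterpart of Psmb7, read 8.07, 9.01, 8.72 and 8.58 CPM in sedentary and 9.09, 6.12, 5.97 and 6.62 CPM in PoWeR young soleus. In aged soleus it read 7.08, 4.46, 6.61, 6.84 and 8.59 CPM when sedentary and 8.83, 7.88, 7.46 and 9.04 CPM after PoWeR. In aged plantaris it read 5.02, 8.83, 6.67, 8.14 and 8.90 CPM (sedentary) and 4.97, 13.7, 7.39 and 8.63 CPM (PoWeR), and in the libraries labelled young plantaris 10.2, 6.16, 6.01 and 7.47 CPM, and 5.39, 5.64, 8.61 and 6.85 CPM after PoWeR. Psmb10 groups overlapped in every comparison made here.

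**Figure D2:**
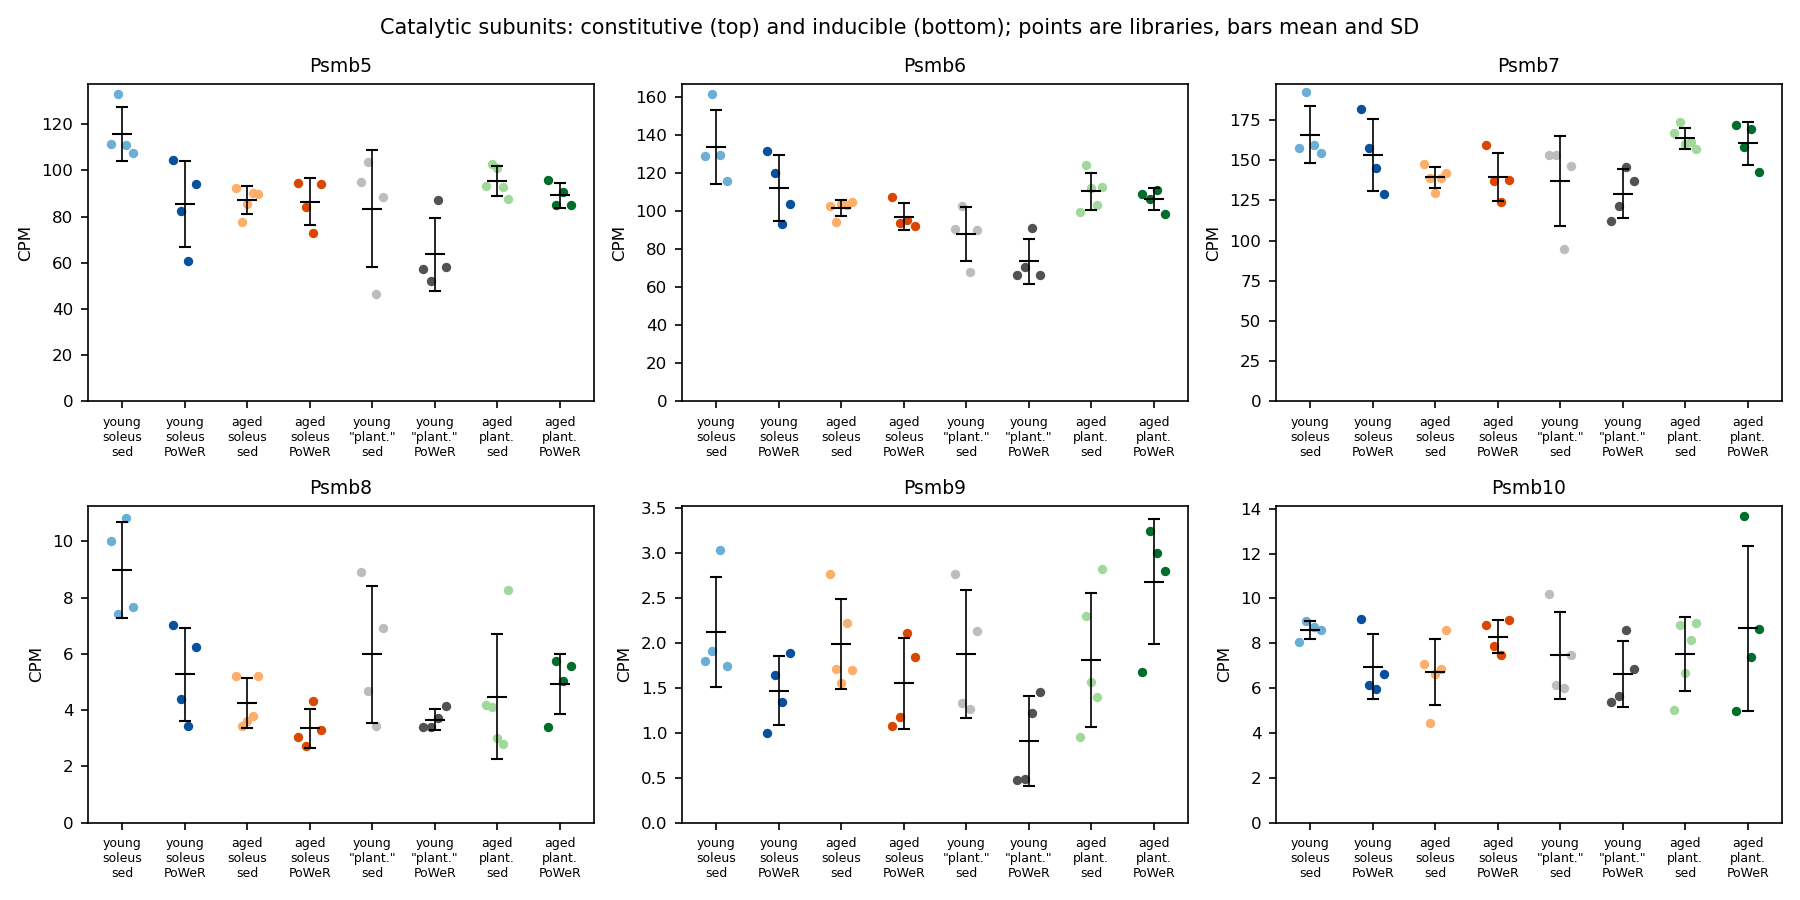
CPM (vertical axis, from 0) of the constitutive catalytic subunits Psmb5, Psmb6 and Psmb7 (top row) and the inducible subunits Psmb8, Psmb9 and Psmb10 (bottom row) in the 8 groups ("plant." is plantaris, with quotation marks where the label is in doubt). Points are libraries and bars are mean and SD. Sedentary young soleus is highest among soleus groups for Psmb5 and Psmb8. For Psmb9 and Psmb10 the trained and sedentary groups of the same muscle label and age overlap.

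Per library, the log2 ratio of an inducible subunit to its constitutive counterpart shows whether the pair moved together. The log2 ratio of Psmb8 to Psmb5 averaged -3.70 ± 0.36 (SD, n = 4) in sedentary and -4.05 ± 0.17 (n = 4) in PoWeR young soleus, against -4.38 ± 0.23 (n = 5) and -4.70 ± 0.42 (n = 4) in aged soleus. In aged plantaris the order was the reverse, at -4.53 ± 0.68 (n = 5) when sedentary and -4.20 ± 0.43 (n = 4) after PoWeR. The libraries labelled young plantaris averaged -3.83 ± 0.45 when sedentary and -4.09 ± 0.32 after PoWeR (n = 4 each). For Psmb9 to Psmb6 the 8 group means lay between -6.51 and -5.35, and for Psmb10 to Psmb7 between -4.48 and -4.07, with within-group SDs of up to 0.80 and 0.67. These ratios were not tested. Immune cells carry the inducible subunits, so their markers are given beside them: the summed level of 21 immune markers was 132 ± 28.8 CPM in sedentary and 154 ± 63.8 CPM in PoWeR young soleus, and 142 ± 29.5 and 150 ± 50.3 CPM in aged soleus. In aged plantaris it was 207 ± 40.3 and 212 ± 153 CPM, and in the libraries labelled young plantaris 122 ± 50.2 and 140 ± 47.96 CPM. Ranges of this sum overlapped between all groups compared, between 0 and 2 of the 21 markers were at 0 in every library of a group, and their part in the inducible subunits was not tested.

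In young soleus, PoWeR was accompanied by lower levels of beta-ring subunits, the PA28 activator gene Psme1 and the chaperone Psmg4, and by a higher level of the activator Psme4. Of the 48 members tested, 10 fell and 1 rose (edgeR quasi-likelihood test at 0.05, with p adjusted by Benjamini-Hochberg across every gene tested), while over all 14934 genes 12.9% were called, 5.97% higher and 6.89% lower. A log2 fold change below 0 was found in 44 of the 48, with a median of -0.23 over the members and 0.04 over all genes. By role, 4 of 7 beta-ring genes fell, 1 of 7 alpha-ring genes, 1 of 3 inducible genes, 1 of 11 non-ATPase genes, 2 of 5 activators and 1 of 4 core chaperones, and no ATPase or base chaperone passed.

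Psmg4, which with Psmg3 helps to assemble the alpha ring, fell most, from 9.951 ± 1.40 to 5.14 ± 1.26 CPM (log2 fold change -0.93, SE 0.18, edgeR adjusted p = 0.00622), with no overlap between the 4 libraries of each group. Psmb3 (chr11:97703399-97713500), a non-catalytic beta subunit whose promoter is printed above, read 49.5, 63.3, 57.5 and 56.9 CPM in sedentary and 41.0, 37.6, 26.3 and 46.5 CPM in PoWeR libraries. Every trained library of Psmb3 was below every sedentary one, and it fell by 0.56 on the log2 scale (SE 0.12, edgeR adjusted p = 0.00946). Psmb2 (-0.44, adjusted p = 0.0172) and Psmb4 (-0.40, adjusted p = 0.0185), also non-catalytic beta subunits, fell as well.

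Among the catalytic pairs, Psmb5 (-0.41, SE 0.13, edgeR adjusted p = 0.0398) and its counterpart Psmb8 (-0.74, SE 0.23, adjusted p = 0.0358) both fell. Psmb6 (-0.23, adjusted p = 0.169), Psmb7 (-0.09, 0.639), Psmb9 (-0.50, 0.309) and Psmb10 (-0.28, 0.307) did not pass. Psma1, of the alpha ring, was at the threshold (-0.30, adjusted p = 0.0491), and Psmd14, the deubiquitinase of the lid that removes ubiquitin chains from substrates, fell by 0.40 (adjusted p = 0.0316). Psme1, a subunit of the PA28 activator that caps the core without ATP, went from 19.6 ± 1.7 to 12.2 ± 4.0 CPM (-0.66, adjusted p = 0.0223).

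Psme4, the nuclear activator known as PA200, was the exception in direction, at 164 ± 8.0 CPM in sedentary and 215 ± 22.8 CPM in PoWeR young soleus (log2 fold change 0.42, SE 0.10, edgeR adjusted p = 0.0125). Psme2b read 32.7, 35.5, 28.3 and 28.1 CPM when sedentary and 26.1, 21.3, 16.5 and 23.9 CPM after PoWeR, which do not overlap (-0.48, adjusted p = 0.0262), though its counts cannot be separated from those of Psme2. Summed over the 14 genes of the core rings, the level was 1176 ± 121 CPM in sedentary and 941 ± 130 CPM in PoWeR libraries, with 1 trained library inside the sedentary range, and over the 17 genes of the regulatory particle it was 2152 ± 201 and 1965 ± 148 CPM.

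These calls rest on few libraries. Without sedentary replicate 2, the library with the highest Psmb5, Psmb6 and Psmb7, only 2 members were called, and without PoWeR replicates 1, 2 and 3 the counts were 17, 4 and 3. Calls over all genes fell as well, from 1920 to 602 without sedentary replicate 2 and to 696 and 623 without PoWeR replicates 2 and 3. A fit of the 2 young soleus groups alone called 1 member (lower), beside 358 of all genes. With a covariate for low rRNA repeat content (under 0.7% of counts) 3 members were called, beside 620 of all genes. Among the soleus libraries only PoWeR replicate 3 of young soleus was under that share (0.423%). The covariate therefore acts like leaving that library out and is no separate check. Psmg4 and Psmb3 passed in all 8 fits that left out a library, Psme4 in 7, Psmb2 in 6, Psmb4, Psme1 and Psmd14 in 5, Psme2b in 4, and Psmb5, Psmb8 and Psma1 in 3. The share of counts from mitochondrial genes was 22.3% ± 0.775 in sedentary and 14.97% ± 3.54 in PoWeR young soleus, and 4 of 10 fast fibre markers (Tnnc2 at -0.82, adjusted p = 0.00723) and 2 of 8 slow fibre markers (Myl3 at -0.82, 0.00806) were called lower there. The part of either in these differences was not tested.

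In the libraries labelled young plantaris, no member was called by edgeR or DESeq2, with 8 members at an unadjusted p under 0.05 (edgeR). Limma called 7 members, all lower. Over all genes edgeR called 0.223%, 0.151% higher and 0.072% lower. In counts of all genes, edgeR called 34, DESeq2 222 and limma 1398, so the 7 limma calls stand beside 1398. Without sedentary replicate 3, 1 member was called beside 227 of all genes, and without PoWeR replicate 3, 1 beside 130. A log2 fold change below 0 was found in 39 of the 48, with a median of -0.13 over the members and 0.01 over all genes. The smallest p-values belonged to Psmb2 (-0.34, edgeR adjusted p = 0.254), Psme2b (-0.48, 0.299), Psmb3 (-0.31, 0.312) and Psmb9 (-1.05, 0.313). Psmb5 (-0.40, 0.389), Psmb6 (-0.27, 0.408), Psmb7 (-0.10, 0.835), Psmb8 (-0.71, 0.366) and Psmb10 (-0.18, 0.843) had wider errors here. The rRNA repeat share of counts was 3.71, 3.41, 0.578 and 3.13% in the sedentary and 0.242, 0.326, 2.73 and 0.282% in the PoWeR libraries, so replicate 3 of each group stood with the other group, as it did for Psmb5. With a covariate for a share under 0.7%, Psmb5 was at 0.042 (edgeR adjusted p = 0.964) in place of -0.40. Under that share were sedentary replicate 3 and PoWeR replicates 1, 2 and 4, so the covariate nearly follows training. The estimate with it hangs on replicate 3 of each group, and the part of rRNA content in the Psmb5 difference was not tested. Psmb3 read 35.8, 36.5, 36.4 and 36.5 CPM when sedentary and 29.6, 25.3, 37.0 and 26.7 CPM after PoWeR, so that PoWeR replicate 3 was above all sedentary libraries. The core rings summed to 872 ± 88.5 and 772 ± 111 CPM.

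At 24 months no member passed the test for PoWeR in either muscle. In aged soleus no member was called (edgeR), 1 had an unadjusted p under 0.05, and DESeq2 and limma each called that 1, Psmd5. Over all genes edgeR called 0.857%, 0.469% higher and 0.388% lower. In counts of all genes, edgeR called 128, DESeq2 378 and limma 533. The core rings summed to 1096 ± 21.2 CPM when sedentary and 1096 ± 90.0 CPM after PoWeR. Log2 fold changes were below 0 in 25 of the 48 members, with a median of -0.01 over the members and -0.0031 over all genes. Psmb5 (-0.03, SE 0.12, adjusted p = 0.958), Psmb6 (-0.08, 0.815) and Psmb7 (-0.01, 0.976) were close to 0, and Psmb8 (-0.36, SE 0.23, 0.561), Psmb9 (-0.37, SE 0.30, 0.671) and Psmb10 (0.29, SE 0.17, 0.506) had errors too wide to place them.

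Psmd5 (chr2:34849734-34874968), a chaperone that holds the base of the regulatory particle before assembly, had the smallest p in aged soleus. It read 49.0, 69.5, 50.7, 47.8 and 48.6 CPM when sedentary and 28.6, 32.9, 42.2 and 44.2 CPM after PoWeR, without overlap (log2 fold change -0.54, SE 0.13, edgeR adjusted p = 0.0561). Over the alternatives its adjusted p lay between 0.0145 and 0.436, and it passed without PoWeR replicate 14 (0.0445) or 15 (0.0387). The next 3, Psma5 (0.21, adjusted p = 0.403), Psmd1 (0.19, 0.443) and Psmc4 (0.17, 0.464), were not called.

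In aged plantaris no member was called by edgeR, DESeq2 or limma, none had an unadjusted p under 0.05, and 0.0262% of all genes were called by edgeR, 0.0131% in each direction. The smallest p-values were those of Psmc3ip (-0.50, SE 0.30, adjusted p = 0.602), Psmd9 (-0.21, 0.640), Psmb9 (0.56, SE 0.39, 0.659) and Psmd3 (-0.20, 0.661). Psmb5 (-0.10, 0.893), Psmb6 (-0.06, 0.919), Psmb7 (-0.03, 0.962), Psmb8 (0.14, 0.922) and Psmb10 (0.21, 0.836) were near 0 relative to their errors. The core rings summed to 1076 ± 50.9 and 1082 ± 81.4 CPM.

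**Figure D3:**
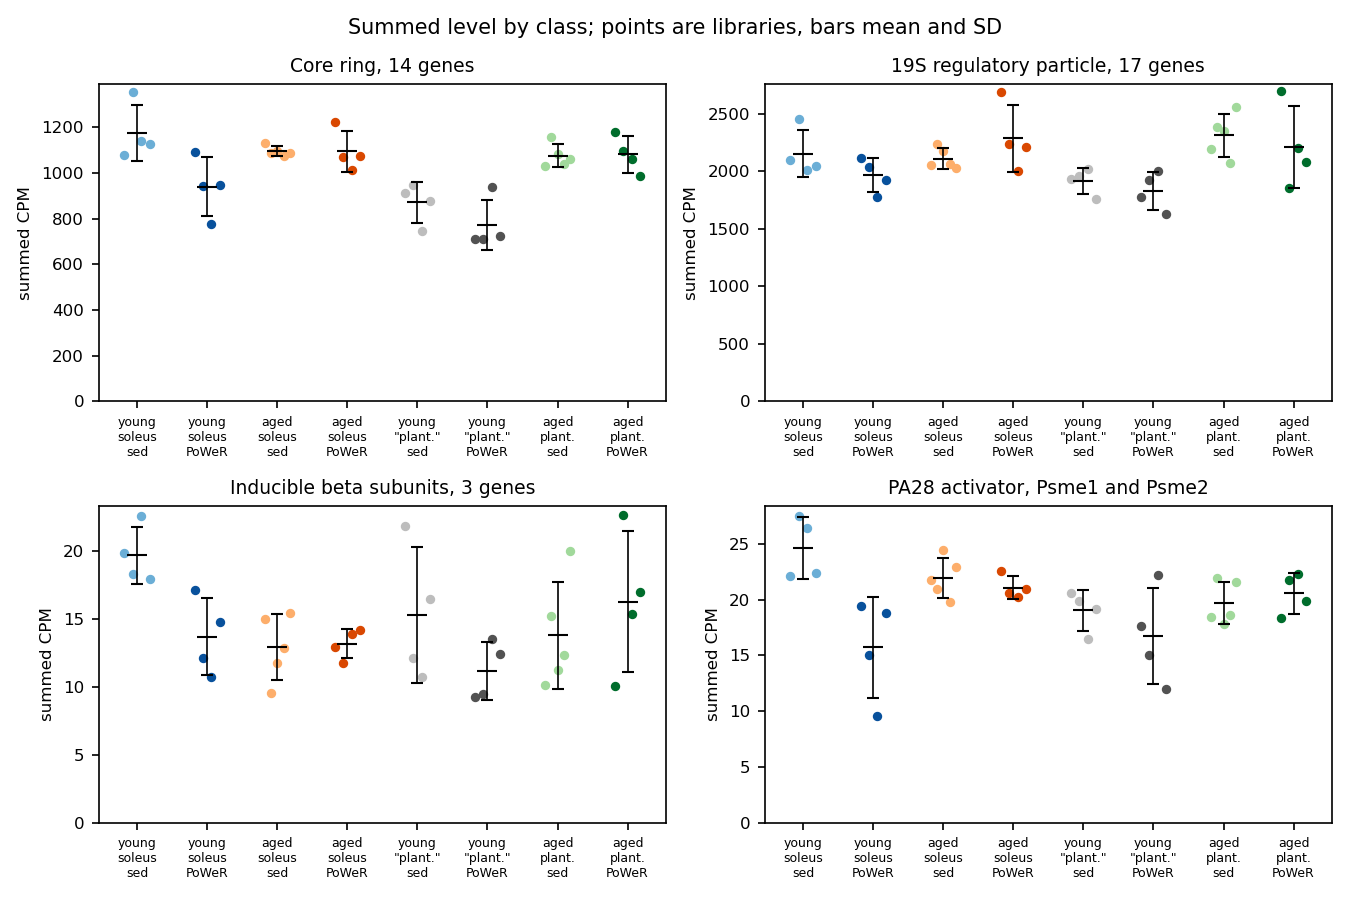
Summed CPM (vertical axes, from 0) of the core rings, the regulatory particle, the inducible subunits and the PA28 activator genes in the 8 groups; points are libraries and bars are mean and SD. The core-ring sum is 1176 ± 121 CPM in sedentary and 941 ± 130 CPM in PoWeR young soleus and 1096 CPM on average in both aged soleus groups.

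In soleus the PoWeR effects of the 2 ages were tested against each other. No member was called for the difference of the PoWeR effects (aged minus young) by edgeR or limma. In the edgeR fit 17 of 48 were at an unadjusted p under 0.05, and 0% of all genes were called. DESeq2 called 1 member, higher, and 72 of all genes. The estimate was above 0 in 43 of the 48, with a median of 0.29 over the members and -0.01 over all genes, and since the young effect enters this difference, its sign is no independent result. Psmg4 (1.03, SE 0.25, edgeR adjusted p = 0.184), Psmd14 (0.52, 0.216), Psma5 (0.46, 0.234) and Psmc1 (0.38, 0.258) had the smallest p-values. For the catalytic subunits the difference was 0.39 for Psmb5 (adjusted p = 0.358), 0.15 for Psmb6 (0.693), 0.07 for Psmb7 (0.864), 0.39 for Psmb8 (0.616), 0.12 for Psmb9 (0.927) and 0.57 for Psmb10 (0.321). The young calls are therefore not shown to differ from the aged effects.

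Between muscles at 24 months, the difference of the PoWeR effects (soleus minus plantaris) was called for no member by edgeR, DESeq2 or limma, with 0 at an unadjusted p under 0.05 and 0% of all genes called by edgeR. Psmb9 (-0.93, SE 0.46, edgeR adjusted p = 0.427), Psmd3 (0.35, 0.432), Psmd5 (-0.39, 0.467) and Psme3 (0.24, 0.468) came first by p. Psmb5 (0.08, 0.847), Psmb6 (-0.02, 0.959), Psmb7 (0.02, 0.974), Psmb8 (-0.49, SE 0.39, 0.651) and Psmb10 (0.08, 0.948) followed no common direction.

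Age separated the members in both directions in sedentary soleus. Of 48 members 10 were higher and 11 lower at 24 than at 6 months, where edgeR called 36.2% of all genes, 19.5% higher and 16.7% lower and the members' share was 43.8%. The median log2 fold change was -0.05 over the members and 0.03 over all genes. Within the beta ring the subunits went opposite ways: Psmb1 (0.33) and Psmb3 (0.42) were higher and Psmb5 (-0.36) and Psmb6 (-0.35) lower. Of the 9 fits that left out a library, Psmb1 passed in 5, Psmb5 in 8, and Psmb3 and Psmb6 in 9. The core rings summed to 1096 CPM in aged and 1176 CPM in young sedentary soleus, and to 1158 and 1040 CPM without TMM factors. The order of the ages for the rings as a whole therefore depends on the scaling. Psma3 (-0.40) and Psma6 (-0.39) were lower in the alpha ring, while no alpha gene was higher. With the counts of its pseudogenes added, Psma3 was at 0.042 (edgeR adjusted p = 0.799), the opposite sign. All 4 core chaperones were called, Psmg2 (0.52) and Psmg3 (0.69) higher and Psmg1 (-0.58) and Psmg4 (-0.83) lower. Psmg1 works as a dimer with Psmg2 and Psmg3 with Psmg4, so each dimer had a higher and a lower partner in this comparison. Of the 9 fits that left out a library, Psmg2 passed in 4, Psmg3 in 5, Psmg1 in 8 and Psmg4 in 9. In PoWeR soleus 2 core chaperones were called higher with age and 0 lower.

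Psmd5 had the smallest p for age in sedentary soleus, with 26.3, 30.9, 26.3 and 25.3 CPM at 6 months against 49.0, 69.5, 50.7, 47.8 and 48.6 CPM at 24 months (log2 fold change 1.01, SE 0.13, edgeR adjusted p = 8.18e-06). Its groups lay far apart, and replicate 13 was the highest aged library. Psmd11 (chr11:80428615-80473248), a lid subunit known to set the amount of assembled proteasome, read 84.2, 80.7, 72.6 and 67.1 CPM in young and 102, 115, 115, 107 and 106 CPM in aged libraries (0.57, adjusted p = 8.68e-05). Psmd8 (chr7:29174188-29180701), also of the lid, read 98.6, 118, 96.2 and 86.1 CPM in young and 129, 161, 151, 123 and 127 CPM in aged libraries (0.52, adjusted p = 0.00145). None of these overlapped between the ages.

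Psme2b (chr11:48945354-48946190) was lower with age, at 15.5, 13.9, 15.8, 14.3 and 18.8 CPM against the young values given above (-0.94, SE 0.13, edgeR adjusted p = 1.13e-05), and Psme3, the nuclear PA28 gamma activator, was lower too (-0.41, adjusted p = 0.00063). Psmb8 fell by 1.03 on the log2 scale (SE 0.22, adjusted p = 0.000937), the only inducible subunit to pass, with Psmb9 at -0.05 (adjusted p = 0.912) and Psmb10 at -0.31 (0.161). Psmb7 did not pass (-0.20, 0.121). Psmd7, a lid subunit that pairs with Psmd14, was lower (-0.36, adjusted p = 0.00719). The 11 members with the smallest p, from Psmd5 to Psmb6, passed in all 9 fits that left out a library.

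In PoWeR soleus the age difference leaned upward: 23 members were higher and 3 lower at 24 months (edgeR), against 19.7% and 18.1% of all genes and 37.9% in either direction. The median log2 fold change was 0.28 over the members and 0.02 over all genes. The trained young libraries are the same as in the training comparison above, so the lower young levels enter both. Psmd8 had the smallest p, at 83.6, 67.2, 77.0 and 78.1 CPM in young and 173, 144, 121 and 150 CPM in aged PoWeR libraries (0.95, SE 0.12, edgeR adjusted p = 6.67e-06). Psmb3 followed, at 41.0, 37.6, 26.3 and 46.5 against 72.1, 66.3, 69.2 and 68.4 CPM (0.87, adjusted p = 1.84e-05), and Psmc4 (chr7:28041707-28050101), an ATPase, at 55.3, 52.2, 44.97 and 56.1 against 83.5, 76.8, 67.7 and 86.0 CPM (0.59, adjusted p = 9.72e-05). No aged library of these 3 lay below a young one.

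Psmb1 (0.63, edgeR adjusted p = 0.000132), Psmc6 (0.44, 0.000648), Psmd11 (0.46, 0.000937), Psmb2 (0.52, 0.00112), Psma4 (0.54, 0.00127), Psma1 (0.45, 0.00161), Psmd5 (0.61, 0.00194), Psmf1 (0.58, 0.0027) and Psmd14 (0.49, 0.00284) complete the 12 smallest p-values, all higher with age. By role 5 of 7 alpha, 4 of 7 beta, 4 of 6 ATPase and 4 of 11 non-ATPase genes were higher, and none of these was lower. Psme2, a PA28 subunit, was called higher (0.59, adjusted p = 0.0268) and was at -0.306 (0.0685) with the counts of Psme2b added. The 3 lower members were Psme2b (-0.52), Psme4 (-0.35) and Psmb8 (-0.64, adjusted p = 0.0369). Psmb5 (0.02, 0.901), Psmb6 (-0.20, 0.147), Psmb7 (-0.13, 0.347), Psmb9 (0.08, 0.872) and Psmb10 (0.26, 0.247) did not pass.

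Of the members called higher with age, 10 were called in both the sedentary and the PoWeR comparison (Psmb1, Psmb3, Psmc4, Psmc6, Psmd5, Psmd8, Psmd11, Psmd12, Psmg2, Psmg3), which is 100% of the sedentary and 43.5% of the PoWeR calls. Of those called lower, 2 were shared, Psmb8 and Psme2b (18.2% of the sedentary and 66.7% of the PoWeR calls). The overlap of the age calls over all genes was not counted. These shares therefore have no background and are not read as particular to the members. For Psmc4 the sedentary values were 57.9, 68.3, 58.0 and 56.7 CPM in young and 66.6, 66.8, 75.9, 70.8 and 65.4 CPM in aged libraries, which overlapped (0.25, edgeR adjusted p = 0.0429), and for Psmb3 the aged sedentary values were 74.99, 71.3, 76.4, 74.8 and 70.3 CPM, all above the young. Between sedentary young and aged soleus the mitochondrial share of counts was 22.3% and 14.01% ± 0.552 and the sum of 10 endothelial markers 425 ± 48.4 and 320 ± 50.6 CPM, and their part in the age differences was not tested. Any difference in how the young and aged libraries were prepared cannot be told apart from age.

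**Figure D4:**
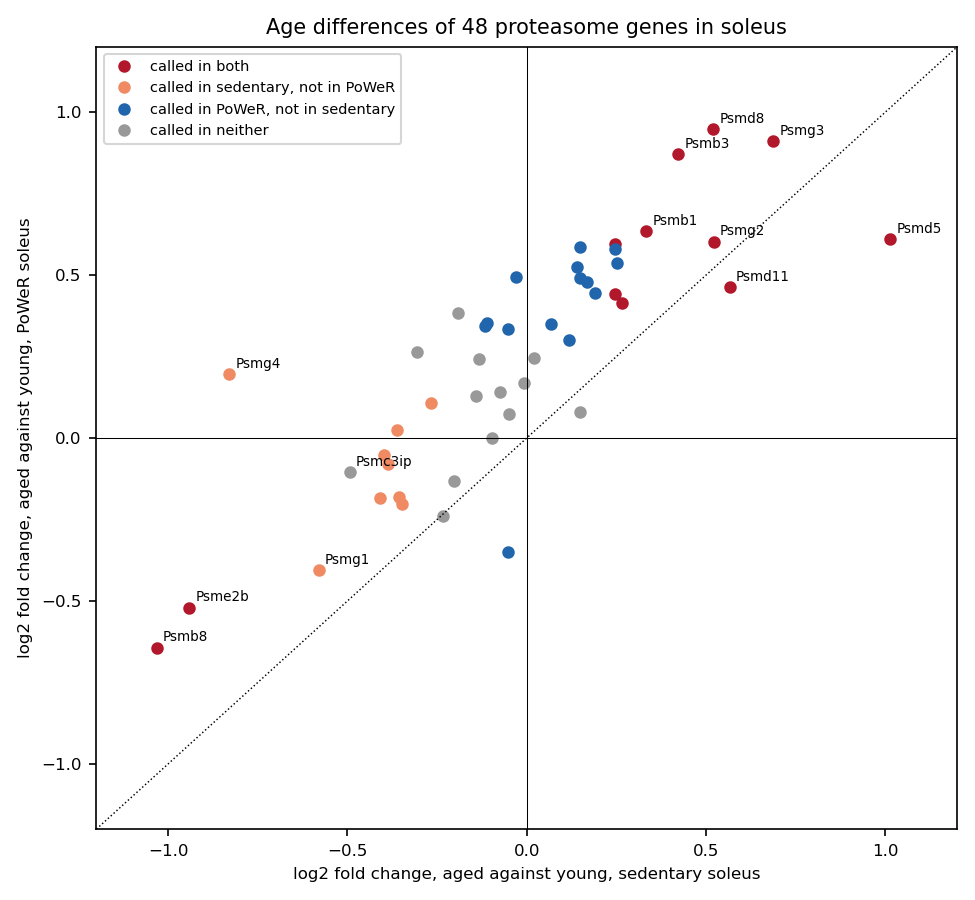
Log2 fold change aged against young in sedentary soleus (horizontal axis) and in PoWeR soleus (vertical axis) for the 48 tested members, coloured by the comparisons in which they were called. Psmd5, Psmd8 and Psmb3 lie above 0 on both axes, Psme2b and Psmb8 lie below 0 on both, and most members lie above the diagonal.

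Levels of the age-linked members outside soleus are set beside these. In aged plantaris Psmd8 read 154, 183, 164, 129 and 164 CPM (sedentary) and 187, 148, 141 and 138 CPM (PoWeR), and in the libraries labelled young plantaris 116, 97.6, 78.7 and 102 CPM, and 85.1, 86.6, 101 and 78.4 CPM after PoWeR. Psmb3 read 60.7, 76.4, 70.2, 63.5 and 70.1 CPM, and 84.0, 74.8, 70.8 and 65.7 CPM after PoWeR, in aged plantaris. Psmd11 read 121, 102, 113, 91.3 and 109 CPM, and 121, 95.0, 93.5 and 100.3 CPM after PoWeR, in aged plantaris, against 78.6, 60.3, 61.2 and 58.9 CPM, and 67.1, 72.5, 65.7 and 60.2 CPM, in those labelled young. These values are set side by side without a test because the muscle of the young libraries is in doubt.

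The remaining values of these members fill in the groups not given above. Psmd11 in PoWeR soleus read 75.03, 84.4, 81.2 and 66.1 CPM at 6 months and 107, 109, 93.2 and 112 CPM at 24 months, without overlap. Psmc4 read 73.6, 78.5, 78.4, 64.5 and 85.9 CPM in sedentary and 82.7, 61.3, 75.4 and 68.2 CPM in PoWeR aged plantaris, and 48.5, 44.8, 39.3 and 45.6 CPM, and 41.0, 45.2, 44.96 and 34.2 CPM, in the libraries labelled young plantaris. Within each label the sedentary and PoWeR libraries of Psmc4 overlapped. Psme2b read 17.2, 14.4, 13.97 and 15.3 CPM in PoWeR aged soleus, 11.0, 14.8, 15.02, 11.3 and 13.9 CPM in sedentary and 14.8, 16.9, 16.2 and 13.4 CPM in PoWeR aged plantaris. In the libraries labelled young plantaris it read 21.3, 21.5, 15.3 and 18.8 CPM, and 12.001, 10.04, 20.6 and 13.1 CPM after PoWeR, groups that overlap.

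Between the muscles of sedentary aged mice, 5 members were higher and 3 lower in soleus (edgeR), where 32.9% of all genes were called, 17% higher and 15.8% lower and the members' share was 16.7%. With RLE in place of TMM scaling the split was 3 higher and 6 lower, and with no filter on low counts 2 and 5. This fit did not pair the muscles, and more members were called with the replicate number as a block, as given in the last section. Psmd5 was the member furthest apart: the aged soleus values above, from 47.8 to 69.5 CPM, stood against 20.3, 21.1, 20.1, 23.9 and 14.5 CPM in plantaris (log2 fold change 1.43, SE 0.14, edgeR adjusted p = 1.62e-07). Young libraries had 23.6, 26.5, 23.4 and 23.6 CPM of it in PoWeR soleus, and 24.3, 22.9, 23.9 and 27.0 CPM (sedentary) or 22.9, 22.8, 22.0 and 19.9 CPM (PoWeR) where labelled plantaris. All 5 sedentary aged soleus libraries lay above every other library for Psmd5, while PoWeR aged soleus overlapped sedentary young soleus.

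Psme4 was lower in soleus, at 153 ± 7.4 against 226 ± 7.1 CPM (-0.55, SE 0.10, edgeR adjusted p = 0.000206), and Psmb1, a non-catalytic beta subunit, was higher, at 145 ± 8.3 against 110 ± 6.5 CPM (0.42, adjusted p = 0.00129). Psma5 (0.32, adjusted p = 0.0344), Psma1 (0.23, 0.0348) and Psmg4 (0.59, 0.0349) were higher and Psma3 (-0.29, 0.0362) and Psmb7 (-0.21, 0.0483) lower. With the counts of its pseudogenes added, Psma3 was at -0.05 (adjusted p = 0.699) and was not called. Psmb5 (-0.11, 0.325), Psmb6 (-0.10, 0.347), Psmb8 (-0.06, 0.882), Psmb9 (0.15, 0.752) and Psmb10 (-0.15, 0.667) did not pass. Psmd5, Psme4 and Psmb1 passed in all 10 fits that left out a library. Mitochondrial share (14.01% and 11.3% ± 1.33) and summed immune markers (142 and 207 CPM) differed between the muscles, and their part was not tested. The count was 5 without soleus replicate 12 or 16 or plantaris replicate 13, 4 without soleus replicate 14, and 3 without plantaris replicate 12 or 14.

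In trained aged mice 8 members were higher and 1 lower in soleus than in plantaris (edgeR), against 22.5% of all genes in either direction, 12.2% higher and 10.3% lower. Psmd5 read 17.3, 20.04, 17.1 and 17.96 CPM in plantaris, all below the 28.6 to 44.2 CPM of soleus (1.04, SE 0.16, edgeR adjusted p = 5.94e-05). Psme4 (-0.50, adjusted p = 0.00229) and Psmb1 (0.44, 0.00368) kept their directions, as did Psma5 (0.36, 0.0469) and Psmg4 (0.69, 0.0367). Psmd13 (0.34, 0.00593), a lid subunit, Psme3 (0.33, 0.0178), Psmc1 (0.30, 0.0342) and Psmc3ip (0.86, 0.0317) were higher. With the replicate number as a block, since same-numbered soleus and plantaris libraries deviated together, Psmc3ip did not pass (0.86, edgeR adjusted p = 0.0792). Psmb5 (-0.04, 0.827), Psmb6 (-0.12, 0.348), Psmb7 (-0.20, 0.134), Psmb8 (-0.55, 0.201), Psmb9 (-0.78, 0.113) and Psmb10 (-0.06, 0.896) did not pass. Without soleus replicate 12 or plantaris replicate 14 the count was 5.

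**Figure D5:**
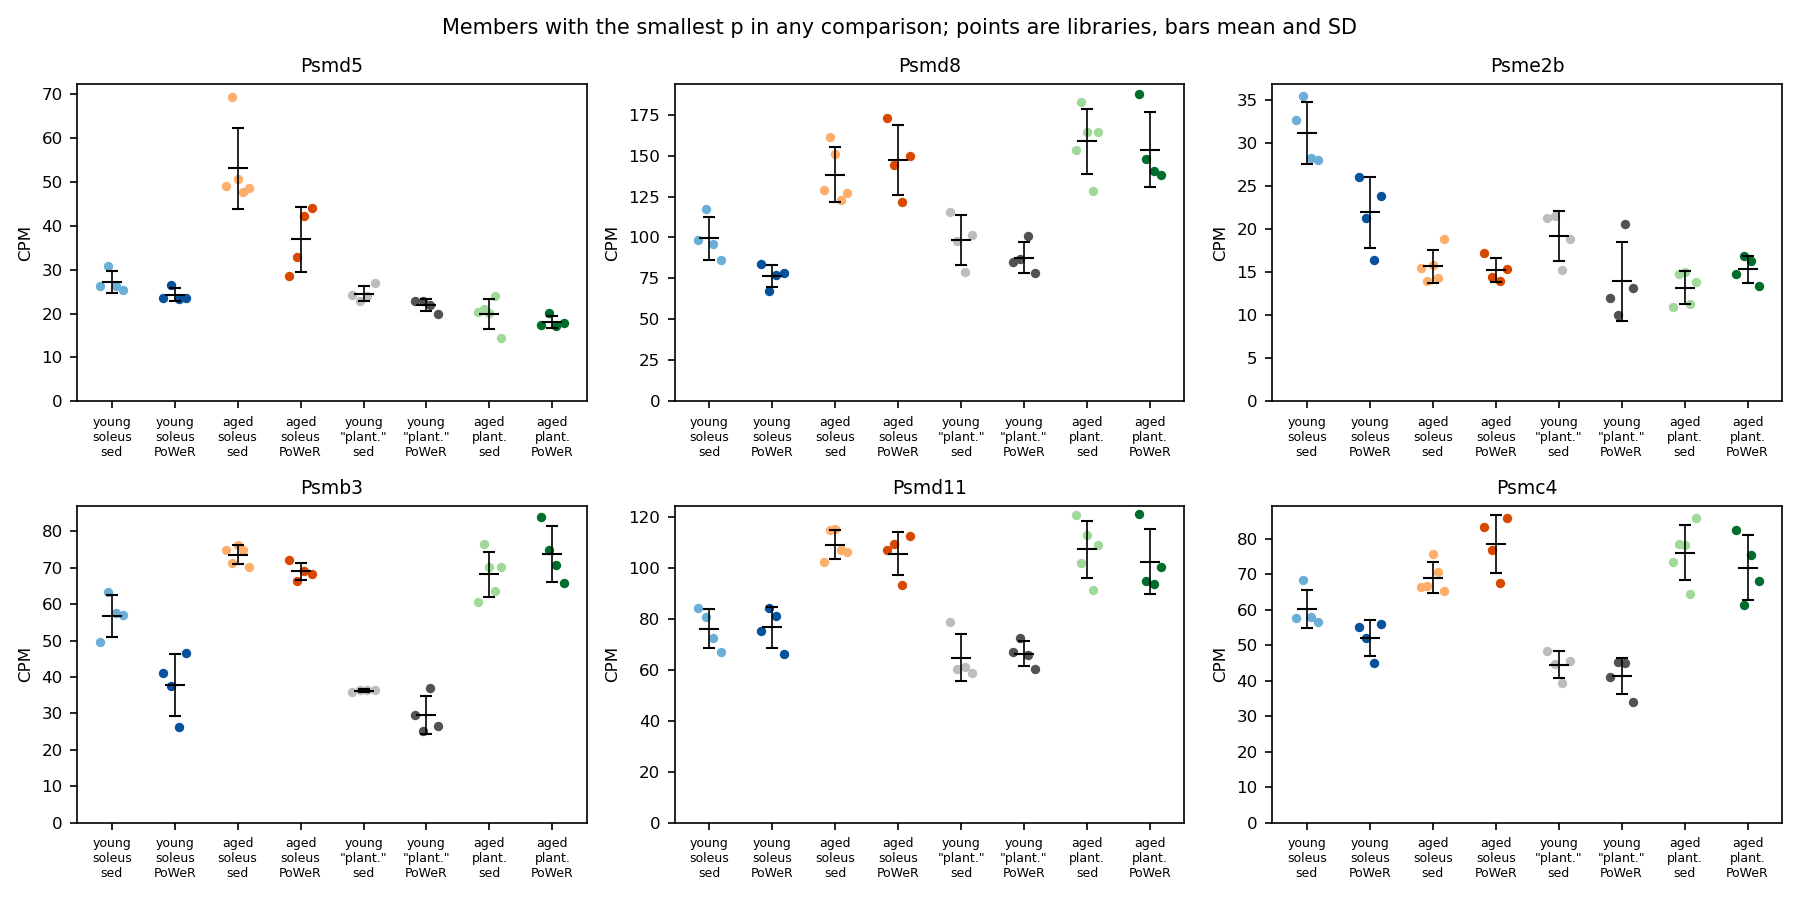
CPM (vertical axes, from 0) of the 6 further members with the smallest p in any comparison, in the 8 groups; points are libraries and bars are mean and SD. Psmd5 is highest in sedentary aged soleus, at 53.1 ± 9.23 CPM, while in PoWeR soleus all aged libraries lie above all young ones for Psmd8, Psmb3, Psmd11 and Psmc4, and Psme2b is highest in sedentary young soleus.

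Genes around the proteasome gave a setting for these values. Among 24 tested partners outside the Psm symbols (ubiquitin receptors, deubiquitinases, chaperones and regulators), PoWeR in young soleus came with higher Ngly1 (0.36, edgeR adjusted p = 0.0173), the deglycosylating enzyme that activates Nfe2l1, and Ubr4 (0.52, 0.0266), a ubiquitin ligase, and with lower Sem1 (-0.47, 0.0228), the smallest lid subunit, which makes 12.5% of the partners called beside 12.9% of all genes. Their median log2 fold change was 0.0035, beside -0.23 for the members and 0.04 for all genes. Of 20 ubiquitin genes and muscle ligases, 5 were called there (25% of the list, beside 12.9% of all genes), 4 of them higher, among them Nedd4 (0.52, 0.00558), Fbxo32 (0.75, 0.00622) and Asb2 (0.37, 0.024). No gene of either list was called for PoWeR in aged soleus, aged plantaris or the libraries labelled young plantaris by edgeR.

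With age in sedentary soleus 9 partners were higher and 6 lower (62.5%, beside 36.2% of all genes), led by Ngly1 (0.80, edgeR adjusted p = 9.74e-07), Ubr4 (0.82, 0.000141), Ufd1 (0.54, 0.000173), which with Vcp extracts ubiquitin-tagged proteins, and Akirin2 (0.57, 0.000222), which carries proteasomes into the nucleus. In PoWeR soleus 10 were higher and 4 lower (58.3%, beside 37.9%), with Ufd1 (0.81, 3.56e-06), Usp14 (0.53, 0.000188) and Ngly1 (0.50, 0.000278) higher and Uchl5 (-0.69, 0.000109) lower. Usp14 and Uchl5 are both deubiquitinases of the regulatory particle. Ubiquitin genes and ligases had 3 higher and 2 lower in sedentary soleus (25%, beside 36.2% of all genes), with Trim55 at 0.47 (0.000268), and 6 higher and 4 lower in PoWeR soleus (50%, beside 37.9%). In aged sedentary muscle 8 of 24 partners were lower and 1 higher in soleus than in plantaris (37.5%, beside 32.9% of all genes), with Zfand5 (-0.57, 0.00012) and Ddi2 (-1.18, 0.000476) lower. Of 20 ubiquitin genes and ligases 7 were lower and 1 higher there (40%), with Ubb at -0.75 (6.18e-05) and Fbxo32 at -0.97 (0.0123).

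Of 21 genes of MHC class I presentation and the interferon response, which share their control with the inducible subunits, 1 fell and none rose with PoWeR in young soleus (B2m, -0.49, edgeR adjusted p = 0.0335), with 18 of 21 below 0 and a median of -0.33. That is 4.76% of the list beside 12.9% of all genes. With age, 5 were lower and none higher in sedentary soleus (23.8%, beside 36.2%), among them Tapbp (-0.69, 4.53e-05) and Tap2 (-0.57, 0.0105), and 3 were higher and 1 lower in PoWeR soleus (19%, beside 37.9%), with B2m (0.71, 0.000861) and H2-K1 (0.56, 0.00556) higher. Of 15 immune markers tested in soleus, 1 was called with PoWeR in young soleus, Mrc1 of resident macrophages (1.197, edgeR adjusted p = 0.0207). That is 6.67% beside 12.9% of all genes, with 6 at an unadjusted p under 0.05, 11 of 15 above 0 and a median of 0.31. With age in sedentary soleus 0 were called by edgeR (beside 36.2% of all genes), with 2 at an unadjusted p under 0.05. With age in PoWeR soleus 2 were higher and 2 lower (26.7%, beside 37.9% of all genes), with 10 of 15 below 0 and a median of -0.38. Among them Cd68 (1.93, edgeR adjusted p = 0.000639) was higher and Adgre1 (-1.33, 0.00791) lower.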

How the data were processed

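RNA sequencing of 34 libraries was analysed from 1 table. It holds estimated counts per gene, made from the reads by the authors and deposited without normalization, as far as the values show. Of its values 26.7% were not whole, and the smallest sum over libraries was 10. The submitters' processing notes name STAR 2.7.3a, Partek, DESeq2 and mm10 with no role or order, and strand use is not given in the sources used here. Counts were rounded to whole numbers, scaled by TMM, filtered by group (minimum count 10, minimum total 15) and tested with edgeR 4.0.16 (R 4.3.3, quasi-likelihood, robust). Fits took the 17 soleus libraries, the 17 libraries labelled plantaris and the 18 aged libraries, and p-values were Benjamini-Hochberg adjusted over all genes, with 0.05 as the threshold. CPM levels used TMM over all libraries. Totals of 15237617 to 26250434 counts set the precision. No per-sample column was left out (0).

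Named members were the 6 catalytic subunits and, per comparison, up to 12 called members by smallest p, or the 4 smallest where fewer than 4 were called. The members and lists were chosen with earlier results of these data known. Alternatives were DESeq2 1.42.0, limma 3.58.1, RLE scaling, no filter, an rRNA term, 2-group fits, left-out libraries, a replicate block and, chosen after seeing the data, copies summed into their member. The procedure was tested on simulated data. Same-numbered PoWeR soleus and plantaris libraries at 24 months deviated together (correlations of 0.119 to 0.217 over 4 pairs), so these numbers pair the libraries, as read from the data. Table ends were 1 base beyond GENCODE and are given less that base. Some genes and a motif are not reported here.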

Additional observations from a re-analysis of the deposited data

Results flagged for a closer look

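Of 120 checks of a group for a library that stands apart from the rest (Dixon's criterion), 13 met it, where chance gives about 1 in 20. In sedentary young soleus, replicate 2 had Psmb5 at 132.9 CPM (others 107.7 to 111.6), Psmb7 at 192.2 CPM (154.1 to 159.3) and Psmc4 at 68.34 CPM (56.66 to 58), and replicate 3 had Psmb9 at 3.037 CPM (1.74 to 1.908). In PoWeR young soleus, replicate 2 had Psmd5 at 26.51 CPM (23.38 to 23.6).

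In sedentary aged soleus, replicate 13 had the highest Psmd5, 69.51 CPM (47.77 to 50.65), and the lowest Psmb6, 94.25 CPM (102.6 to 104.7). In PoWeR aged soleus, the log2 ratio of Psmb8 to Psmb5 was -4.072 in replicate 14 (others -4.954 to -4.838). In sedentary aged plantaris, replicate 16 had Psmb8 at 8.275 CPM (2.803 to 4.191).

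Among libraries labelled young plantaris, sedentary replicate 3 had Psmb7 at 94.92 CPM (146.5 to 153.4) and PoWeR replicate 3 had Psmb5 at 87.06 CPM (52.26 to 58.01). Sedentary replicate 1 had Psmd11 at 78.59 CPM (58.92 to 61.19) and Psmb3 at 35.8 CPM (36.38 to 36.49), where the other 3 libraries lay within a narrow range.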

How the results depend on the processing

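For PoWeR in young soleus the 11 calls became 3 with the rRNA term and 1 in a fit of the 2 groups alone, and 2 to 17 with a library left out. For PoWeR in aged soleus the count of 0 became 1 with DESeq2, limma, no filter or the rRNA term, and 0 to 1 with a library left out. In the soleus fits the rRNA term sets apart only young PoWeR replicate 3, so it acts like leaving that library out. No aged soleus library was under its limit. In the libraries labelled young plantaris 0 became 7 with limma, which called 1398 of all genes there. It was 0 to 1 with a library left out, and in aged plantaris it was 0 throughout. Between the muscles of sedentary aged mice 8 became 16 with limma and 13 in a fit of the 2 groups, and 3 to 9 with a library left out. In PoWeR mice 9 became 4 with no filter and 4 in a fit of the 2 groups, and 5 to 7 with a library left out. The difference of PoWeR effects by age went from 0 to 1 with DESeq2, which called 72 of all genes there. Age calls ran from 15 to 20 (sedentary) and 21 to 26 (PoWeR) with a library left out. With copies summed, Psma3 for age in sedentary soleus was at 0.042 and Psme2 in PoWeR soleus at -0.306, since their copies hold most of the joint counts. Without TMM factors the core rings were at 1158 (aged sedentary), 1226 (aged PoWeR) and 1040 CPM (young sedentary) in soleus, so the order of the sedentary ages turned, the regulatory particle at 2226 (aged sedentary) and 1901 CPM (young sedentary), and the inducible subunits at 14.76 (aged PoWeR) and 17.46 CPM (young sedentary). For the other changes the cause was not tested.

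Over all genes, calls for PoWeR in young soleus went from 1920 to 620 with the rRNA term, 623 without PoWeR replicate 3 and 358 in the 2-group fit. In aged soleus they went from 128 to 378 with DESeq2, 533 with limma, 216 with the rRNA term, 229 in the 2-group fit and 10 with the replicate block. With the replicate block, members called between sedentary muscles were 12 and between PoWeR muscles 8, and 0 for PoWeR in aged soleus, for PoWeR in aged plantaris and for the difference between muscles. Of the 5 sedentary pairs of muscles, 4 correlated at 0.115 to 0.212 and replicate 12 at 0.021, so not every pair was over 0.1 and the sedentary numbers were not taken as pairs, nor were those of trained and sedentary libraries (-0.112 to 0.078). Of 9 muscle pairs, 8 matched best with their own number. Psmc3ip between PoWeR muscles was the only named call lost under the block where the numbers pair the libraries. No paired analysis was possible for the young groups because the sedentary and PoWeR libraries compared share no number in their names.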
